A study of Homo sapiens with 17 samples.

Results

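ZFP36, ZFP36L1, ZFP36L2, ELAVL1, KHSRP, HNRNPD, TIA1 and TIAL1 encode proteins that bind AU-rich elements, short A- and U-rich stretches in the 3′ untranslated regions (3′ UTRs) of mRNAs. These 8 genes were chosen by name from the 19222 genes of the 1 h experiment, by a rule that used no measured value, although earlier results of these data were known when they were chosen. The study asked how a block of translation elongation changes the synthesis and decay of mRNA in HEK-293T, a wild-type line of human embryonic kidney cells, treated with emetine, an alkaloid that stops ribosomes from moving along mRNA. In the 1 h experiment, 3 libraries came from untreated cells and 3 from cells given 1.8 µM emetine, all of them with 500 µM 4-thiouridine (s4U), a uridine analog that cells build into the RNA they are making. An untreated library and a library with 1.8 µM emetine, 1 of each, came from cells without s4U. In the 2 h experiment, 3 libraries each came from untreated cells, cells with 1.8 µM emetine and cells with 240 µM emetine, with 250 µM s4U on their labels. All groups came from this single cell line, and nothing in the sources used here says whether the libraries of a group came from separate cultures, so the p-values measure the spread between these libraries, which may be technical.

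AU-rich elements mark the mRNAs of many cytokines, growth factors and immediate early genes for rapid decay, and the proteins that bind them decide between decay, storage and translation. ZFP36 (tristetraprolin), ZFP36L1 and ZFP36L2 form a family with tandem CCCH zinc fingers that recruits the CCR4-NOT deadenylase, and they are phosphorylated by stress kinases downstream of p38. ELAVL1 (HuR) protects its targets from decay, KHSRP recruits decay enzymes, and HNRNPD (AUF1) promotes decay of many targets. TIA1 and TIAL1 repress translation and enter stress granules.

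Of the 8 mRNAs, 4 carry the nonamer TTATTTATT, a core motif of AU-rich elements, in their own annotated 3′ UTR (Ensembl canonical transcripts of GENCODE 44, GRCh38, transcript strand searched). The 30 bases around each copy are given here, since the nonamer is a core motif of the elements that name this group. Capitals mark the nonamer and T stands for U.
ZFP36: tatgacgactTTATTTATTctaatatgatt
ZFP36L1: aactgttggaTTATTTATTttagaaattcc
ZFP36L2: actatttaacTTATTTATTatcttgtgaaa
ELAVL1: atttatgtatTTATTTATTgaagtgtgaaa

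These windows lie at chr19:39409196-39409225 on the plus strand for ZFP36, and on the minus strand at chr14:68788076-68788105 for ZFP36L1, chr2:43223447-43223476 for ZFP36L2 and chr19:7961827-7961856 for ELAVL1. The nonamer was found in 9.62% of the 12722 genes with an annotated 3′ UTR. Longer 3′ UTRs hold it more often, so each gene was set beside genes whose 3′ UTR was of like length. The share with the nonamer was 5.87% at the length of the ZFP36 3′ UTR (708 bases), 9.0% at that of ZFP36L1 (1871 bases), 9.23% at that of ZFP36L2 (1917 bases) and 20.9% at that of ELAVL1 (4910 bases). KHSRP, HNRNPD, TIA1 and TIAL1 had no copy in the annotated 3′ UTR. The pentamer ATTTA, which the nonamer contains, occurred 13 times each in the 3′ UTRs of ELAVL1 and TIA1, 8 times in that of ZFP36L1, 5 times each in those of ZFP36, ZFP36L2 and TIAL1, and 2 times in HNRNPD. It occurred 1 time in KHSRP, where 88.2% of genes with a 3′ UTR of like length had at least as many. A match of letters is a description of the annotation and does not show that a protein binds there.

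The 8 libraries of the 1 h experiment held 27416189 to 48852046 reads, of which 81.1% to 82.3% were given to a gene. In TimeLapse sequencing (TL-seq), s4U in new RNA is recoded so that it is read as C, and 0.802% to 1.06% of the T positions in gene reads were converted in the libraries with s4U, against 0.0504% and 0.0521% in those without. The fraction new, the share of a gene's reads made during the hour of labeling, had a median over genes of 9.26%, 12.3% and 14.7% in untreated replicates 1 to 3 and of 10.7%, 11.04% and 10.3% in the emetine libraries. Emetine replicate 3 differed from emetine replicates 1 and 2: the deviation of its gene levels from the mean of its group rose with transcript length (Spearman's rho = 0.75 across 11514 genes, which are not independent replicates). Deviations cancel out within a group, so the −0.68 and −0.67 of emetine replicates 1 and 2 are not separate evidence. Untreated replicates 1 to 3, set against their own mean, gave 0.10, 0.17 and −0.23. The 6 markers fixed for HEK-293T-like cells (VIM, KRT8, KRT18, PAX2, NEFL and NEFM) had reads in all 8 libraries, with a summed level of 935 to 1059 CPM (counts scaled to library size) in untreated and 769 to 925 CPM in emetine libraries with s4U. Of these 6, VIM, NEFM and NEFL reached 657, 213 and 125 CPM and KRT18 reached 61.0 CPM. KRT8 and PAX2 reached only 7.06 and 2.93 CPM. Of 5 markers of other cells, PTPRC and CD3E had no reads, ALB had 21 reads in all, and HBA1 and COL1A1 reached 2.83 and 28.1 CPM. COL1A1 was thus above KRT8 and PAX2.

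In untreated cells, HNRNPD, KHSRP, ELAVL1 and TIAL1 were the more abundant of the 8 mRNAs, and the ZFP36 family the most rapidly renewed. Levels of different genes were compared as CPM per kilobase of transcript. HNRNPD was the most abundant at 232 ± 7.43 (SD, n = 3), higher than 96.9% of 13482 genes. KHSRP followed at 88.5 ± 2.64, ELAVL1 at 42.6 ± 0.764 and TIAL1 at 31.8 ± 2.17 CPM per kilobase. ZFP36L2 stood at 15.4 ± 1.46, TIA1 at 10.8 ± 0.334 and ZFP36L1 at 6.17 ± 0.895, and ZFP36 was the lowest at 1.35 ± 0.267 CPM per kilobase, higher than 19.8% of genes. The ranges of the 3 untreated libraries did not overlap between any neighbors in this order.

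The order of turnover was nearly the opposite. The fraction new in untreated cells was 86.5% ± 5.58 (SD, n = 3) for ZFP36L2 and 85.4% ± 7.04 for ZFP36L1, higher than in 99.6% of 10763 genes each, and these neighbors overlapped. For ZFP36 it was 67.9% ± 5.63, higher than in 98.4% of genes, and its 3 values lay below all values of ZFP36L1 and ZFP36L2. Next came TIAL1 at 12.5% ± 2.98, TIA1 at 10.1% ± 3.94, ELAVL1 at 8.18% ± 2.25 and KHSRP at 7.03% ± 0.889, each overlapping with its neighbor. HNRNPD was the most slowly renewed of the 8 at 3.60% ± 0.831, below all values of KHSRP and above 7.64% of genes. If levels were at a steady state and labeling began with the hour, these fractions correspond to half-lives of 20.8 ± 4.34 min for ZFP36L2, 21.7 ± 5.53 min for ZFP36L1 and 36.8 ± 5.48 min for ZFP36. On the same assumption, the half-lives were 5.43 ± 1.47 h for TIAL1, 7.31 ± 3.09 h for TIA1, 8.56 ± 2.39 h for ELAVL1, 9.60 ± 1.196 h for KHSRP and 19.7 ± 5.13 h for HNRNPD. Among all genes with an annotated 3′ UTR and enough reads, the median fraction new was 16.5% for the 995 with the nonamer and 11.5% for the 9414 without, with median 3′ UTR lengths of 3134 and 1277 bases. ELAVL1, which carries the nonamer, stood below both medians.

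**Figure D1:**
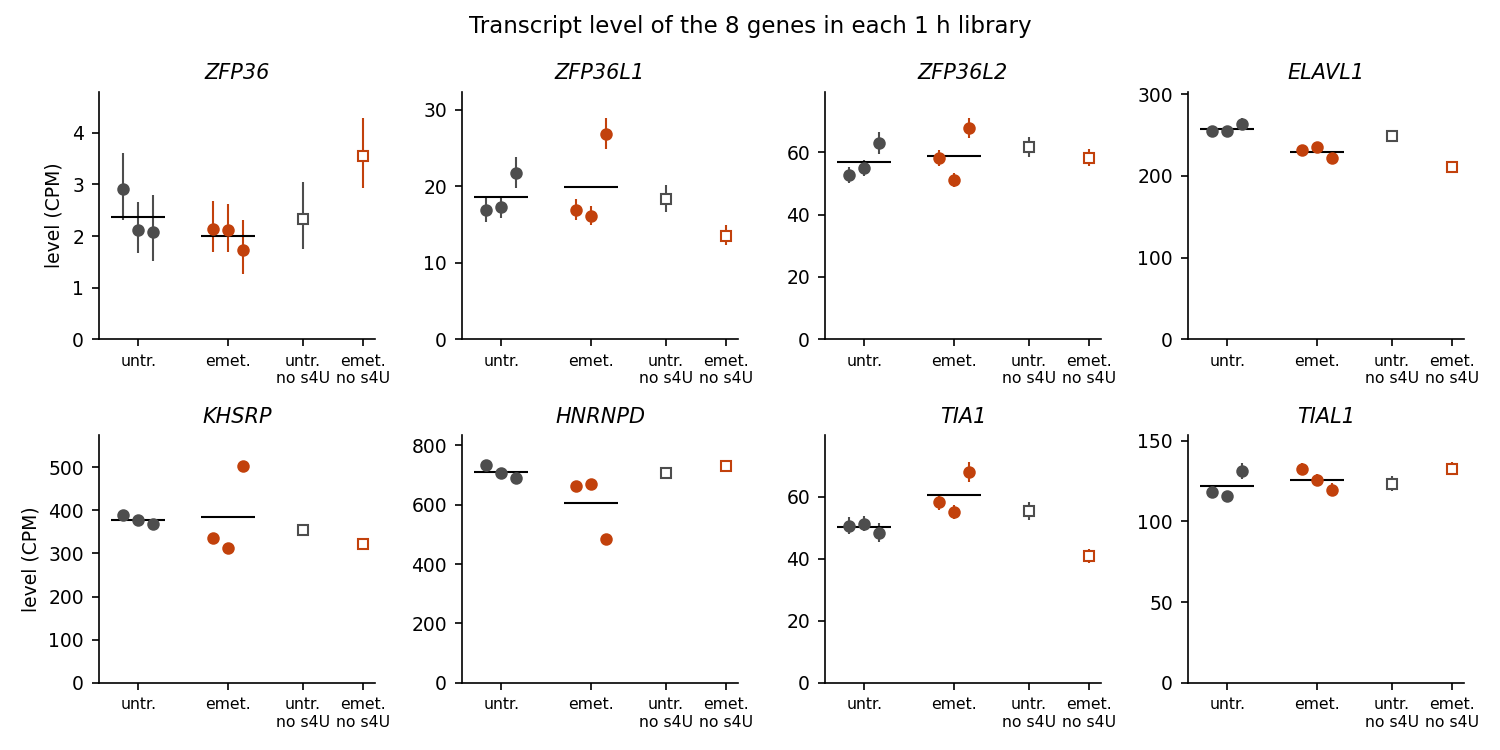
Level of each of the 8 mRNAs in CPM (linear axis from 0, 1 scale per gene) in the 1 h libraries: filled circles are libraries with s4U in the order of their replicate numbers (gray untreated, orange emetine), open squares are the single libraries without s4U, black lines are means of 3 and vertical bars are 95% Poisson intervals of the counts. The KHSRP value of emetine replicate 3 (504 CPM) and its HNRNPD value (483 CPM) lie far from the other 2 emetine libraries. The groups with s4U do not overlap in ELAVL1 and HNRNPD (emetine lower, as in 15.2% of all genes tested) and in TIA1 (emetine higher, as in 19.5%).

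After 1 h of emetine, no member passed the test of level (edgeR's quasi-likelihood test with Benjamini-Hochberg adjustment over 13776 genes, threshold 0.05), and so none passed the stricter thresholds of the study. Over all genes tested, 2.64% were called higher and 0.0436% lower, and at an unadjusted p under 0.05 the shares were 14.9% and 6.95%. The median log2 fold change of the 8 was 0.04, beside 0.03 over all genes. In bulk samples such as these, fewer cells with an mRNA and less of it per cell cannot be told apart. With scaling to spike-in reads, the median of all genes moved to 0.71 and the 8 members lay between 0.43 and 0.96, so the signs of ZFP36, ELAVL1 and HNRNPD turned, and again none was called. Spike-in reads varied within groups, at 0.667%, 0.480% and 0.728% of reads in untreated and 0.304%, 0.666% and 0.408% in emetine libraries. The SEs of the 8 members were then 0.45 to 0.54, beside 0.082 to 0.22 in the main test. At an unadjusted p under 0.05, TIA1 was the 1 member that passed in edgeR, and with DESeq2's Wald test none of the 8 was called after adjustment.

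ZFP36L2 was the member whose labeling changed. Its fraction new was 80.1%, 90.3% and 89.2% in the untreated libraries and 70.6%, 74.5% and 72.4% in the emetine libraries. Every emetine value lay below every untreated value, as was the case for 16.8% of all genes tested. The mean fell from 86.5% ± 5.58 to 72.5% ± 1.92 (SD, n = 3 each), a change in the logit of the fraction new of −0.94 ± 0.28 (SE), with an adjusted p of 0.0267 by limma. Of 7 members tested it was the 1 called lower, and over all genes 4.83% were called lower and 0.214% higher. The median change in the logit was −0.07 over the 7 members and −0.16 over all genes. The call was lost when any library but untreated replicate 1 was left out: the change was −0.78, −0.84, −0.89, −0.99 and −0.94, with adjusted p-values of 0.265, 0.209, 0.245, 0.147 and 0.161, without untreated replicates 2 and 3 and emetine replicates 1, 2 and 3 in turn. Without untreated replicate 1 it was −1.20, with an adjusted p of 0.0022. It was also lost when reads with at least 2 conversions were counted (−1.03, adjusted p = 0.102) and with a minimum of 50 reads (adjusted p = 0.0956).

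The total level of ZFP36L2 was 52.6, 54.9 and 62.9 CPM in untreated and 58.0, 51.0 and 67.6 CPM in emetine libraries, which overlapped (log2 fold change 0.05 ± 0.12 SE, adjusted p = 0.819 by edgeR). Splitting each level by the fraction new gave labeled reads, from new RNA, and unlabeled reads. The unlabeled reads come from RNA made before the treatment only if labeling began with the hour. Unlabeled ZFP36L2 stood at 10.5, 5.33 and 6.79 CPM in untreated libraries and at 17.1, 13.0 and 18.6 CPM in emetine libraries. The groups did not overlap, as was the case in this direction for 23.9% of genes. The mean rose from 7.53 ± 2.64 to 16.2 ± 2.89 CPM, a log2 difference of 1.10 ± 0.24 SE on the log2(CPM + 0.5) scale (adjusted p = 0.0261 by limma, and 7.30% of all genes were called higher and 0.0929% lower). The labeled part went from 49.3 ± 6.98 to 42.7 ± 5.69 CPM, with overlapping groups and an adjusted p of 0.780. No member was called for the labeled part, where 0.260% of all genes were called higher and 0.632% lower. The unlabeled call was lost without untreated replicate 2 (adjusted p = 0.109), untreated replicate 3 (0.141) or emetine replicate 1 (0.0519). The fraction new and the unlabeled part are computed from the same reads and are not separate evidence.

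ZFP36L1 followed the same pattern without passing the tests. The fraction new of ZFP36L1 was 77.6%, 87.3% and 91.3% in untreated and 75.1%, 70.6% and 77.1% in emetine libraries. The groups did not overlap, as was the case in this direction for 16.8% of genes. The lowest untreated and the highest emetine library were within counting error of each other. The change in the logit was −0.77 ± 0.28 (SE), with an adjusted p of 0.0933 by limma. Unlabeled ZFP36L1 stood at 3.78, 2.19 and 1.899 CPM in untreated and at 4.21, 4.73 and 6.15 CPM in emetine libraries. Again the groups did not overlap, as was the case in this direction for 23.9% of genes (log2 difference 0.86 ± 0.24 SE, adjusted p = 0.0707 by limma). Its total level was 16.9, 17.2 and 21.7 CPM against 16.9, 16.1 and 26.8 CPM, with emetine replicate 3 the highest of the 6 (log2 fold change 0.10 ± 0.20 SE, adjusted p = 0.784 by edgeR). With untreated replicate 1 left out, whose median fraction new was the smallest of the 6, both measures passed, with adjusted p = 0.00722 for the fraction new and 0.0202 for the unlabeled part. With any other library left out neither passed: the adjusted p was 0.244 to 0.479 for the fraction new, whose change went down to −0.52, and 0.0568 to 0.281 for the unlabeled part.

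ZFP36 had 44 to 85 reads in each library with s4U and did not reach the minimum of 100 reads set for the test of labeling. The values of fraction new were 65.5%, 64.0% and 74.4% in untreated libraries and 65.3%, 57.0% and 49.9% in emetine libraries, with overlap. With the minimum set to 40 reads, which was chosen after seeing the data, the change in the logit was −0.46 ± 0.26 (SE), with an adjusted p of 0.468. In that test of 12116 genes the adjusted p of ZFP36L2 was 0.127. The total level of ZFP36 was 2.90, 2.12 and 2.08 CPM in untreated and 2.14, 2.12 and 1.73 CPM in emetine libraries (log2 fold change −0.24 ± 0.22 SE, adjusted p = 0.523 by edgeR). The 95% counting interval at 44 reads was 1.51 to 2.79 CPM, and the SE of the log2 fold change, which also holds the spread between libraries, was close to that of ZFP36L1.

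**Figure D2:**
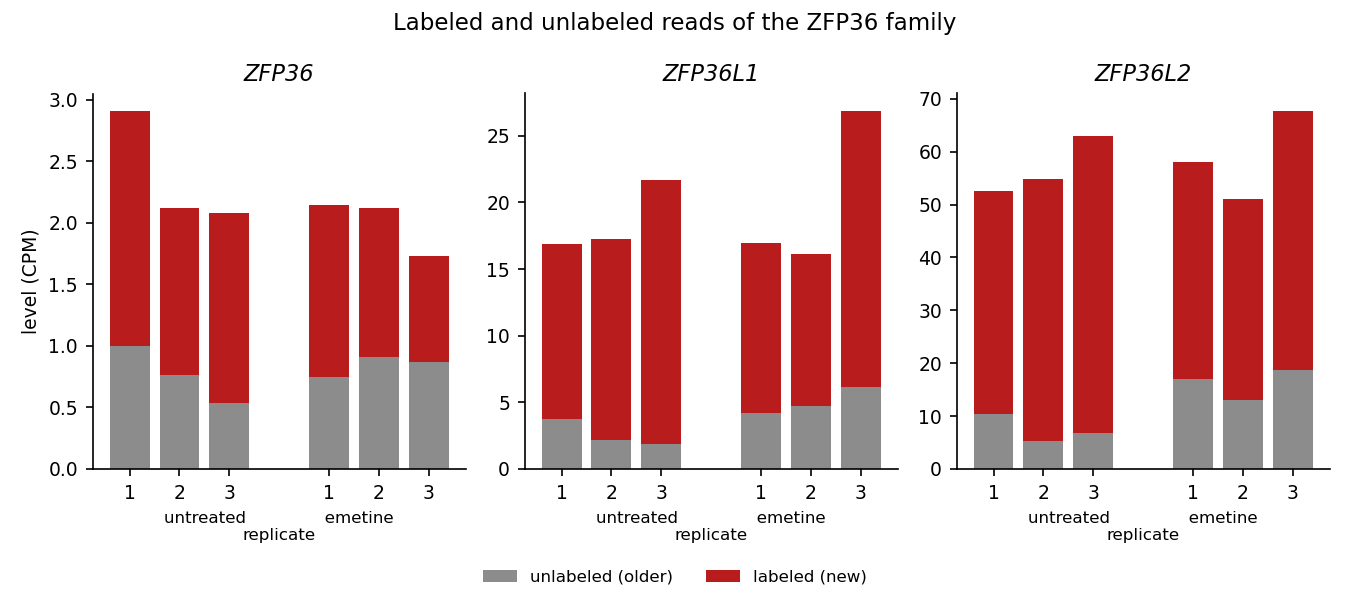
Labeled (red, made during the hour) and unlabeled (gray, taken as older) reads of ZFP36, ZFP36L1 and ZFP36L2 in CPM, stacked to the total level, for the 3 untreated and 3 emetine libraries with s4U. The gray part of ZFP36L2 is 5.33 to 10.5 CPM in untreated and 13.0 to 18.6 CPM in emetine libraries, while the stacked totals overlap.

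By the likeness of the fraction new over the 6 libraries (root mean square difference of the logits), the nearest of 10762 other genes to ZFP36L2 were SNAI2 (0.19), ZFP36L1 (0.23) and CLK1 (0.25). The nearest to ZFP36L1 were CLK1 (0.19), TGIF1 (0.21) and SNAI2 (0.23). The 6 libraries include those with emetine, so a fall like that of the member follows largely from how these genes were picked. Such falls, and the p-values given for them, are therefore not separate evidence. SNAI2, a transcriptional repressor, went from 88.6% ± 3.56 to 73.4% ± 1.44 new, and its level rose by 1.28 on the log2 scale (adjusted p = 0.00368), unlike that of either ZFP36 family member, whose levels did not pass the test. CLK1, a kinase of splicing factors, went from 87.7% ± 3.81 to 74.2% ± 3.45 new (adjusted p = 0.0294 by limma), with a log2 fold change of level of 0.51 (adjusted p = 0.0517). TGIF1, a homeobox repressor, had a change in the logit of −0.43 (adjusted p = 0.498). Among 10763 genes, those nearest to ZFP36 were the noncoding RNAs SNHG19 (0.16), ZNF674-AS1 (0.26) and THAP9-AS1 (0.26).

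**Figure D3:**
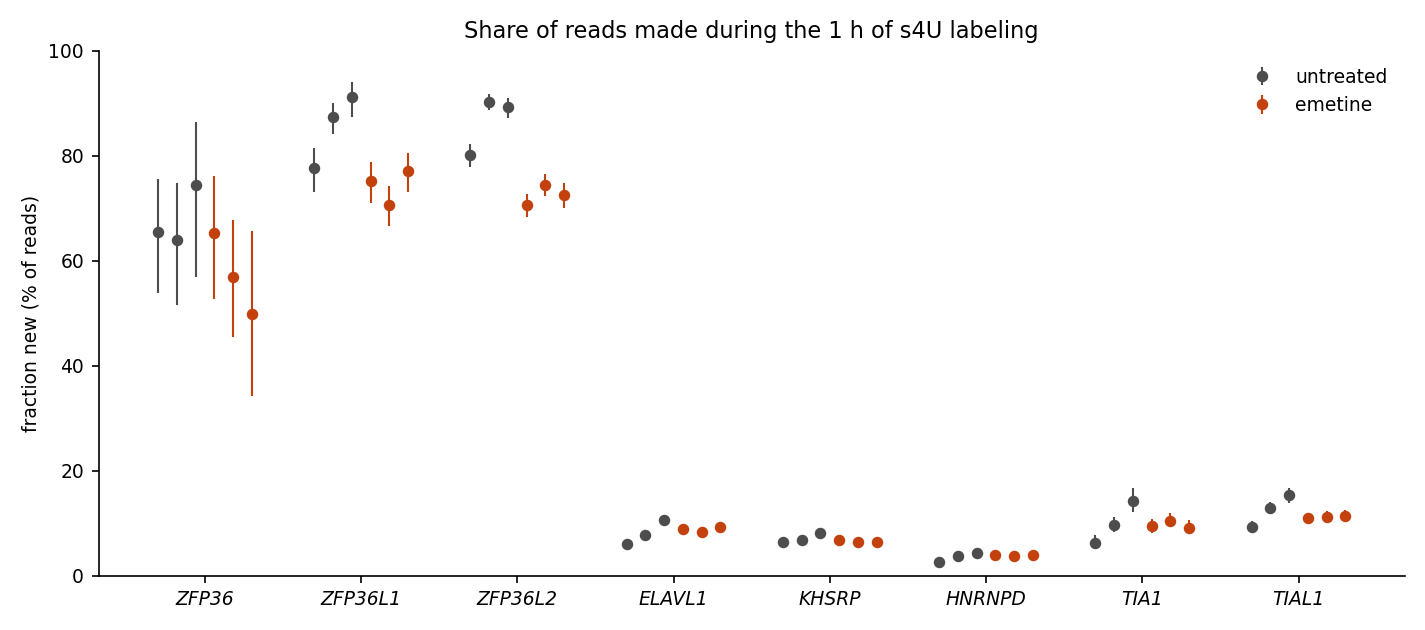
Fraction new (percent of reads, linear axis) of the 8 mRNAs in the 6 libraries with s4U, in the order of their replicate numbers (gray untreated, orange emetine), with 95% intervals from the fit that cover counting error only. The ZFP36 family lies between 49.9% and 91.3% and the other 5 mRNAs between 2.68% and 15.3%. The groups are separate in ZFP36L1 and ZFP36L2, with emetine lower, as in 16.8% of all genes tested.

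ELAVL1 was lower in every emetine library with s4U when levels were scaled by TMM. Its level was 255, 255 and 263 CPM in untreated and 232, 235 and 222 CPM in emetine libraries. The groups did not overlap, as was the case in this direction for 15.2% of genes. The log2 fold change was −0.17 ± 0.082 (SE), with an adjusted p of 0.259 by edgeR. It was −0.32 (adjusted p = 0.064) with the trend on transcript length removed and 0.51 (adjusted p = 0.362) with spike-in scaling. Labeling of ELAVL1 overlapped, with a fraction new of 6.13%, 7.82% and 10.6% in untreated and 8.93%, 8.29% and 9.23% in emetine libraries (adjusted p = 0.888 by limma). Unlabeled ELAVL1 went from 237 ± 2.50 to 210 ± 7.26 CPM (SD, n = 3), without overlap, as was the case in this direction for 16.2% of genes, and with an adjusted p of 0.218.

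KHSRP and HNRNPD, the most abundant of the 8, were set apart by emetine replicate 3, in opposite directions. KHSRP stood at 390, 378 and 368 CPM in untreated libraries and at 336, 314 and 504 CPM in emetine libraries. Emetine replicates 1 and 2 lay below all untreated libraries and replicate 3 far above them. The log2 fold change was 0.02 ± 0.17 (SE, adjusted p = 0.947 by edgeR). Without emetine replicate 3 it was −0.22 ± 0.059 (SE), with an adjusted p of 0.0272, in a fit where 1367 genes were called higher and 525 lower. In the same fit the unlabeled part of KHSRP fell by 0.21 on the log2 scale (adjusted p = 0.0277). The fraction new of KHSRP was 6.33%, 6.73% and 8.03% in untreated and 6.88%, 6.32% and 6.41% in emetine libraries, so emetine replicate 3 was not set apart in this measure (adjusted p = 0.927).

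HNRNPD stood at 734, 708 and 689 CPM in untreated and at 663, 671 and 483 CPM in emetine libraries. Every emetine library was lower, as was the case in this direction for 15.2% of genes. The log2 fold change was −0.23 ± 0.14 (SE), with an adjusted p of 0.327 by edgeR. Emetine replicate 3 was the lowest by far. Without that library the log2 fold change was −0.09. Its fraction new was 2.68%, 3.80% and 4.31% in untreated and 3.99%, 3.80% and 4.00% in emetine libraries (adjusted p = 0.892 by limma).

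TIA1 was higher in every emetine library with s4U. Its level was 50.6, 51.3 and 48.3 CPM in untreated and 58.2, 55.0 and 68.0 CPM in emetine libraries. The groups did not overlap, as was the case in this direction for 19.5% of genes. The log2 fold change was 0.27 ± 0.10 (SE), with an adjusted p of 0.192 by edgeR. It was 0.14 with the trend on transcript length removed and 0.18 without emetine replicate 3. Its fraction new was 6.31%, 9.74% and 14.2% in untreated and 9.37%, 10.5% and 9.17% in emetine libraries (adjusted p = 0.995). TIAL1, its paralog, stood at 118, 115 and 131 CPM in untreated and 132, 126 and 120 CPM in emetine libraries, which overlapped (log2 fold change 0.05 ± 0.090 SE, adjusted p = 0.756). Its fraction new was 9.36%, 12.8% and 15.3% in untreated and 10.9%, 11.3% and 11.3% in emetine libraries (adjusted p = 0.880).

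**Figure D4:**
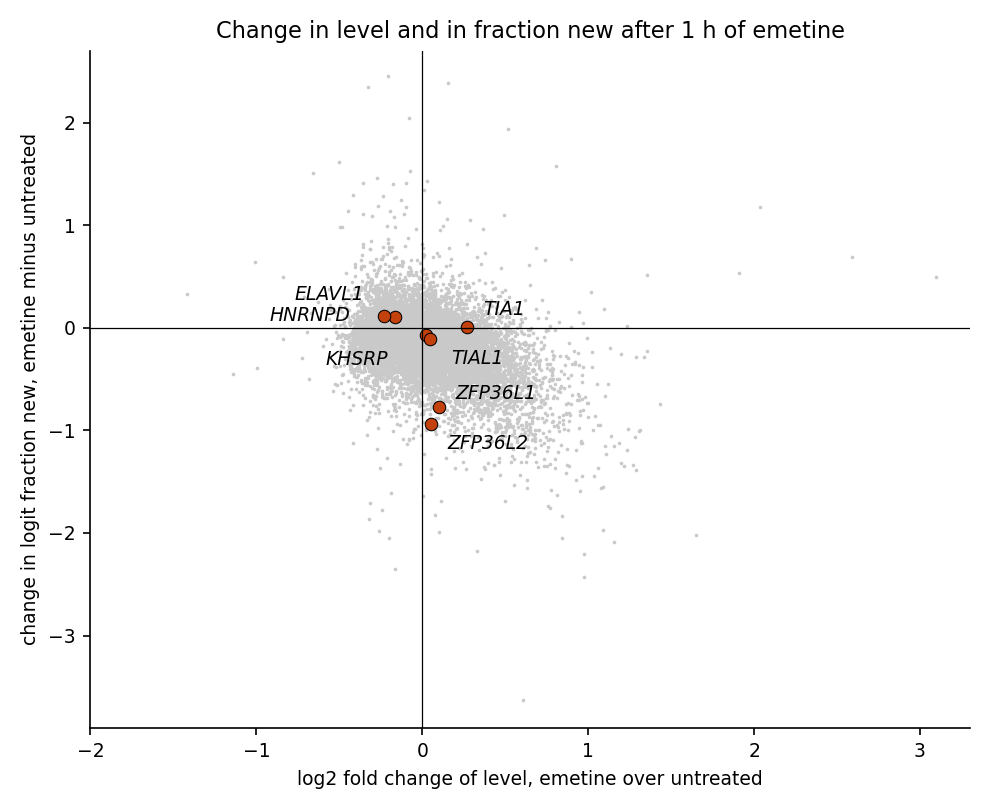
Log2 fold change of level (emetine over untreated) against the change in the logit of the fraction new (emetine minus untreated) for 10763 genes (gray) and the 7 members with enough reads (orange). ZFP36L2 (0.05, −0.94) and ZFP36L1 (0.10, −0.77) lie low in the plot near a level change of 0, and the other 5 lie between −0.11 and 0.11 on the vertical axis.

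The balance within families did not pass a test. The log2 ratio of TIA1 to TIAL1 was −1.28 ± 0.14 in untreated and −1.06 ± 0.22 in emetine libraries (SD, n = 3 each; two-sided exact permutation p = 0.3, adjusted over 4 pairs 0.9). That of ZFP36L1 to ZFP36L2 was −1.62 ± 0.072 and −1.59 ± 0.23 (exact permutation p = 0.9, adjusted 0.9). The ratios of ZFP36 to ZFP36L1 and to ZFP36L2 gave exact permutation p-values of 0.7 and 0.5, each 0.9 after adjustment. With 3 libraries against 3 the smallest p this test allows is 0.1, so these p-values do not decide whether the balance changed.

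The libraries without s4U allowed a look at emetine without the label, with 1 library of each kind and therefore no replicate check. TIA1, which was higher with emetine in the presence of s4U, stood at 55.3 CPM in the untreated and 40.9 CPM in the emetine library without it, a ratio of 0.739 with a 95% counting interval of 0.684 to 0.799. ZFP36 went from 2.33 to 3.56 CPM (55 and 113 reads, ratio 1.52, interval 1.09 to 2.14), and ZFP36L1 from 18.3 to 13.6 CPM (ratio 0.740). ELAVL1 was lower with emetine here as well, at 248 CPM in the untreated and 211 CPM in the emetine library (ratio 0.847, interval 0.818 to 0.878). The ratios of KHSRP, ZFP36L2, HNRNPD and TIAL1 were 0.907, 0.947, 1.03 and 1.08. In an edgeR model of all 8 libraries, added after seeing the data and assuming that the lone libraries vary like the others, the emetine effect on TIA1 with s4U minus that without was 0.71 ± 0.20 SE on the log2 scale (unadjusted p = 0.00707, adjusted p = 0.985). In that model 0 of 13776 genes passed for this difference after adjustment and 583 at an unadjusted p under 0.05, and the adjusted p of every other member was 0.985 as well.

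The libraries without s4U also gave the background of the labeling. In 7 of the members, reads with at least 2 conversions made up at most 0.0838% of reads without s4U. In ZFP36L2 they made up 0.482% (7 of 1451 reads) in the untreated and 0.648% (12 of 1852 reads) in the emetine library, against 53.5% to 78.8% with s4U.

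Whether a read crosses a splice junction gives another view of converted and unconverted reads that the choice of genes did not use. In ELAVL1, KHSRP, HNRNPD, TIA1 and TIAL1, the members with several introns, reads with at least 2 conversions crossed a junction less often than reads with none in all 6 libraries with s4U. The same was seen in 53.4% of 5658 genes with at least 50 reads of each kind and at least 5% of unconverted reads across a junction in each library. In HNRNPD, 51.5% to 66.0% of converted reads crossed a junction, against 66.4% to 75.5% of unconverted reads. The mean difference over the 6 libraries was −11.8 ± 3.43 percentage points (SD) in HNRNPD, −11.1 ± 5.36 in TIAL1, −8.29 ± 2.14 in ELAVL1, −7.97 ± 2.63 in KHSRP and −7.71 ± 2.28 in TIA1, beside a median over genes of −6.10. From untreated to emetine libraries it went from −9.99 ± 1.21 to −13.6 ± 4.28 in HNRNPD, from −7.74 to −8.85 in ELAVL1, from −7.65 to −8.29 in KHSRP, from −7.32 to −8.11 in TIA1 and, in the other direction, from −11.5 to −10.6 in TIAL1. The treatments were not tested against each other in this measure. Converted and unconverted reads were not matched on their number of T positions or their place in the transcript. The part of this in the differences was not tested.

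**Figure D5:**
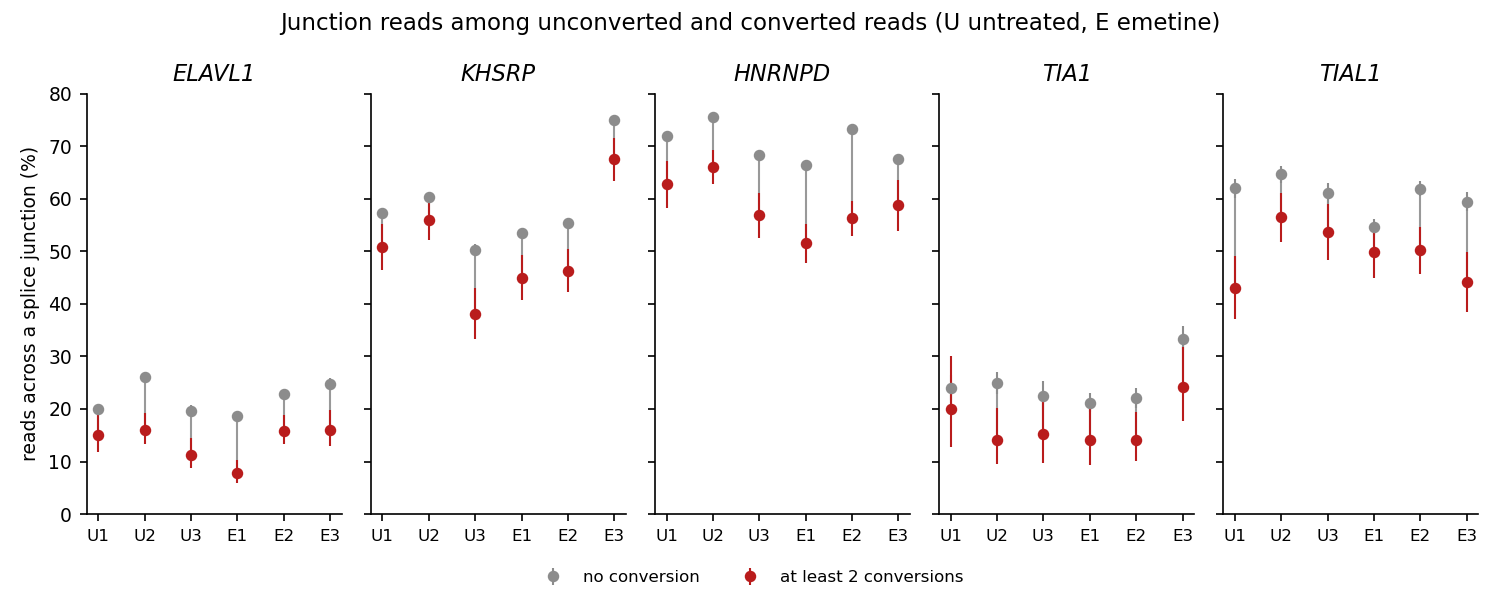
Share of reads that cross a splice junction (percent, linear axis) among reads with no conversion (gray) and with at least 2 conversions (red) in the 5 members with several introns, for untreated (U1 to U3) and emetine (E1 to E3) libraries with s4U, with 95% Wilson intervals. The red point is below the gray point in every library, and both KHSRP points of E3 (67.5% and 74.9%) lie above those of the other 5 libraries.

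Emetine replicate 3 stood apart in this measure in some of the members, but not over all genes. Of all gene reads, 45.4% crossed a junction in that library, within the 42.2% to 50.5% of the other 5 libraries with s4U. In KHSRP, 74.7% of all reads crossed a junction there, against 49.4% to 59.8% in the other 5. For TIA1 the share was 32.5% against 20.7% to 24.1%, and for ZFP36L2, a gene with a single intron, 4.22% against 0.365% to 1.09%. For ZFP36L1 it was 3.36% against 1.66% to 3.04%. HNRNPD, whose level was lowest in that library, had a share of 67.3%, within the 65.8% to 75.1% of the others. The shares of ELAVL1 (24.0%), TIAL1 (57.9%) and ZFP36 were within the range of the others as well. The part of these differences in the levels given above was not tested.

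Few of the genes around these 8 passed a test. None of 5 tested paralogs (of 7 listed, among them ELAVL2 to ELAVL4, FUBP1 and HNRNPDL) and none of 22 other AU- or U-rich binding proteins passed the tests of level or fraction new. None of 16 kinases, phosphatase subunits and 14-3-3 proteins that act on these binders passed either. At an unadjusted p under 0.05 by edgeR, 0 of the paralogs, 7 of the other binders and 4 of the kinases and 14-3-3 proteins passed for level. Over all genes, 14.9% passed as higher and 6.95% as lower. By limma 0, 2 and 0 passed for fraction new, where 124 of 10763 genes passed as higher and 1655 as lower. DESeq2's Wald test called none of the paralogs. It called 1 gene, lower in level, among the other binders and 1 among the kinases and 14-3-3 proteins, where 820 of 13776 genes were called higher and 156 lower. Of 35 tested factors of deadenylation, decapping and 3′-to-5′ or 5′-to-3′ decay, 1 was higher in level and 2 were lower in fraction new, beside shares of 2.64% and 4.83% over all genes, with a median log2 fold change of 0.09. These counts are near the background, and the 2 genes called are described singly. CNOT4, a ubiquitin ligase that associates with CCR4-NOT, rose from 27.2 ± 2.31 to 43.5 ± 6.43 CPM (SD, n = 3 each; adjusted p = 0.0302 by edgeR), and its fraction new fell from 46.0% ± 8.61 to 22.1% ± 3.38 (adjusted p = 0.000564 by limma). The fraction new of PAN3, a subunit of the PAN2-PAN3 deadenylase, fell from 25.1% ± 7.02 to 13.7% ± 2.27 (adjusted p = 0.0262), and its level went from 18.1 to 22.8 CPM (adjusted p = 0.173).

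Of 40 mRNAs with textbook AU-rich elements, a list not taken from measured targets in these cells, 29 were tested for level and 8 were higher, none lower, where 2.64% of all genes were called higher. Their median log2 fold change was 0.32, beside 0.03 over all genes. The list was chosen with earlier results of these data known, and the study itself names JUN and DUSP1 as raised by emetine. The share called higher is therefore not independent of those results. Of the 22 tested for fraction new, 1 was lower and none higher, where 4.83% of all genes were called lower, and the median change in the logit was −0.15, beside −0.16 over all genes. In labeled reads, 4 of the 22 were called higher and 1 lower, where 0.26% and 0.632% of all genes were. In unlabeled reads, 7 were called higher and 0 lower, where 7.3% and 0.0929% of all genes were. These shares are not independent of the earlier results either. JUN, a subunit of the AP-1 transcription factor, rose from 122 ± 3.17 to 1040 ± 217 CPM (SD, n = 3 each), a log2 fold change of 3.10 ± 0.16 SE (adjusted p = 7.86e-05 by edgeR). The phosphatase DUSP1 rose from 39.9 ± 5.79 to 239 ± 47.7 CPM, the transcription factor ATF3 from 23.0 ± 4.27 to 86.4 ± 4.23 CPM and the immediate early gene IER2 from 27.2 ± 1.92 to 52.3 ± 4.19 CPM, with adjusted p-values of 0.00035, 0.000845 and 0.00551. JUN and DUSP1 had a fraction new of 84.4% ± 5.69 and 96.2% ± 1.15 in untreated cells, beside 67.9% to 86.5% for the ZFP36 family, and of 90.3% ± 1.33 and 98.0% ± 0.689 with emetine, and neither change passed the test. ZFP36 itself, an immediate early gene in many cell types, stood at 2.37 ± 0.466 CPM in untreated and 2.00 ± 0.234 CPM in emetine libraries.

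For the 2 h experiment, the deposited tables list 9982 genes with the mean of normalized counts over the libraries, a pooled value that carries no error and does not separate the treatments. ZFP36 was not listed, and the lowest mean listed was 114. Per kilobase of transcript, the mean was 1906 for HNRNPD and 1840 for KHSRP, higher than in 96.0% and 95.7% of the listed genes. It was 689 for ELAVL1, 607 for TIAL1, 316 for TIA1, 306 for ZFP36L2 and 122 for ZFP36L1. HNRNPD and KHSRP led and ZFP36L1 came last of the listed members, as in the untreated 1 h libraries, whereas TIA1 stood just above ZFP36L2 here and below it there.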

How the data were processed

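TL-seq read counts of the 1 h experiment were analyzed for 8 genes taken by symbol. The members and the gene lists were chosen with earlier results of these data known. The deposited counts were made by the authors, who removed adapters with cutadapt, mapped reads to hg38 with hisat-3n and tallied T-to-C conversions per read with bam2bakR. Libraries were prepared with a stranded mRNA kit (1 h) or a stranded total RNA kit (2 h). Intronic reads were left out, because no gene read was marked as reaching from an exon into an intron. In the 2 h tables, the signal values used here, means of normalized counts, were deposited by the authors, who divided counts by spike-in size factors. The columns of log2 fold changes, standard errors and p-values in these tables hold the authors' own comparisons and were not used, nor was the table of size factors.

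Symbols were matched to GENCODE 44 (17147 genes by symbol, 1135 by synonym, 940 not matched). Levels were compared with edgeR 4.0.16 (TMM, quasi-likelihood; R 4.3.3) over the 13776 genes whose reads exceeded 100 in the 6 libraries with s4U together. The fraction new was the mixing weight of new and old reads, each with a binomial number of conversions, that maximized the likelihood in Python 3.11.15 (scipy 1.17.1), and its logit, bounded at 0.001 and 0.999, was compared with limma 3.58.1 over the 10763 genes that had 100 reads or more in every library. The background rate came from the library without s4U of the same treatment. Labeled and unlabeled parts were compared with limma as log2(CPM + 0.5). Benjamini-Hochberg adjustment covered all genes tested, and ratios were compared by an exact permutation test. The 22246279 to 40018063 gene reads per library set the precision, and intervals (95%) cover counting error only, since no molecular identifiers are described. The statistics were tested on simulated data. Alternatives were other normalizations, filters, pseudocounts, rates, DESeq2 1.42.0, a replicate block, a trend on transcript length, and each library left out.

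Named genes are the 8 members, up to 4 genes called with the smallest p in each list, and the 3 genes nearest in fraction new to each ZFP36 family member.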

Additional observations from a re-analysis of the deposited data

How the results depend on the processing

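Deviations of gene levels from the group mean were weakly correlated between same-numbered libraries (0.0635, −0.0155 and −0.174 across 11514 genes). This cannot exclude a pairing, since deviations cancel out within a group and those of the emetine libraries followed transcript length. With replicate numbers as a block, 75 genes were higher and 3 lower in level, 40 were higher in fraction new and 350 were higher in unlabeled reads. In that fit 2 members were lower in fraction new, ZFP36L1 (adjusted p = 0.0391 by limma) joining ZFP36L2 (0.00652). Spike-in scaling moved the median log2 change of all genes to 0.71, left 60 genes higher and 0 lower, and turned ZFP36, ELAVL1 and HNRNPD to 0.43, 0.51 and 0.44. DESeq2 called 820 genes higher and 156 lower, and removing the length trend 820 and 335, with ZFP36L2, KHSRP and TIAL1 at −0.0275, −0.10 and −0.0304, ELAVL1 at −0.32 and TIA1 at 0.14. KHSRP was −0.0014 with DESeq2's size factors, −0.0013 with its test and −0.011 with the block. For fraction new, members called lower were 0 when reads with at least 2 conversions were counted (330 genes lower), 0 with a minimum of 50 reads (14 higher, 298 lower) and 0 with 40 reads, chosen after seeing the data (12 higher, 188 lower). A minimum of 500 reads gave 14 higher and 227 lower. Centering gave 126 higher, with KHSRP at 0.0513 and TIAL1 at 0.0174.

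Leaving out 1 library at a time gave 4 to 1367 genes higher and 0 to 525 lower in level (0 to 1 member lower), 10 to 42 higher and 98 to 2522 lower in fraction new (0 to 2 members lower), 13 to 64 higher and 2 to 1736 lower in labeled reads, and 281 to 1472 higher and 4 to 377 lower in unlabeled reads (0 to 2 members higher, 0 to 1 lower). Level changes then ranged from −0.22 to 0.15 for KHSRP, −0.16 to 0.23 for ZFP36L1 and −0.0529 to 0.14 for ZFP36L2. Changes in fraction new ranged from −1.07 to −0.52 for ZFP36L1 (adjusted p 0.00722 to 0.479), −1.20 to −0.78 for ZFP36L2 (0.0022 to 0.265), −0.0371 to 0.26 for ELAVL1, −0.13 to 0.00016 for KHSRP, −0.031 to 0.21 for HNRNPD, −0.22 to 0.23 for TIA1 and −0.26 to 0.019 for TIAL1. Labeled changes ranged from −0.22 to 0.19 for ELAVL1, −0.26 to 0.0506 for HNRNPD, −0.30 to 0.0444 for KHSRP, −0.0098 to 0.49 for TIA1, −0.29 to 0.13 for TIAL1 and −0.38 to 0.0426 for ZFP36L1, and the unlabeled change of KHSRP from −0.21 to 0.13. The cause of these differences was not tested. Intronic reads were planned and not run. ZFP36 had 44 to 85 reads per library, under the minimum for fraction new.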
